A study of Mus musculus with 2 samples.

Results

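Calpains and calpastatin were followed in mouse primary chondrocytes on 2 one-colour arrays, 1 for cells that had not yet been loaded and 1 for cells harvested 24 h after loading. The cells came from 6-day-old C57BL/6J mice, were cultured on fibronectin in silicone chambers for 48 h and then were stretched cyclically for 30 min (0.5 Hz, 10% elongation). Each time point had 1 array, so that no test could be run, no p-value is given and precision is limited by this small number of arrays. The number of mice behind each array is not given in the sources used here, and 0 arrays of unloaded cells at 24 h were analysed here, so loading and further culture cannot be told apart.

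The set held 10 of the 20660 genes that could be named on the arrays, and it was chosen by a measured value. Capn11 had the largest rise among abundant genes on a single probe, and the other genes were added because they belong to the same family. The rise of Capn11 is therefore a description here and supports nothing. Members were found through the RefSeq transcript accessions that the files list for their probes. This gave 13 probes of 1 spot each, 1 probe for 7 members and 2 probes for Capn3, Capn5 and Capns1. None of the 13 spots was saturated or carried an outlier flag.

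Calpains are cytosolic cysteine proteases that need calcium and cut their substrates at a few sites rather than degrading them. The classical members end in a calcium-binding domain of EF-hands, and Capn1 (μ-calpain) and Capn2 (m-calpain) each pair with the small subunit encoded by Capns1. Calpastatin, encoded by Cast, is their specific inhibitor. The atypical members Capn5, Capn6, Capn7 and Capn10 lack that EF-hand domain. In adherent cells calpains cut talin, filamin, spectrin and other proteins that tie the cytoskeleton to the matrix, and they take part in spreading and migration.

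The promoter of Capn11 is shown because Capn11 was the only member that passed 2-fold, and those of Capn2 and Capn6 are shown for comparison as the only members with the AP-1 letters in the window. Each window runs from 250 bases before a transcript start to 50 bases after it and was taken from RefSeq on build GRCm38.p6. All 3 lie on the reverse strand and are written 5′ to 3′, at chr17:45659260-45659559 for Capn11, chr1:182517561-182517860 for Capn2 and chrX:143827363-143827662 for Capn6. Capitals mark matches to the motifs searched on both strands.
Capn11: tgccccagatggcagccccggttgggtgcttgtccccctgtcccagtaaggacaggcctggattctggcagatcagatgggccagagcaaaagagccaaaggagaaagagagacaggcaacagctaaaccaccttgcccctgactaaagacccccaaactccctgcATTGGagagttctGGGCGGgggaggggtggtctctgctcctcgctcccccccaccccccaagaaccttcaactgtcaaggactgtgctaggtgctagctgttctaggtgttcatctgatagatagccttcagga
Capn2: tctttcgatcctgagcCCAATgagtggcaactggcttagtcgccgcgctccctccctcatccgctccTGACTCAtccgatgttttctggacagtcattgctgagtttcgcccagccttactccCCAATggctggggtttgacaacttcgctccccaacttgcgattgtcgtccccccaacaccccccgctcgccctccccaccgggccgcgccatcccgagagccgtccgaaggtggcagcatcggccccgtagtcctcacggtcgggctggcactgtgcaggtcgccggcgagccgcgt
Capn6: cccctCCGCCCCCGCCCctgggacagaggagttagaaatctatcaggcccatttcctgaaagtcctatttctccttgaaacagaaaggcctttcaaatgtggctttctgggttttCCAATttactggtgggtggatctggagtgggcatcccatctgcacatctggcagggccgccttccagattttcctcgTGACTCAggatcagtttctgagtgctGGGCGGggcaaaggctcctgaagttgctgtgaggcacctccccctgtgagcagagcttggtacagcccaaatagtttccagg

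The AP-1 site was searched as TGACTCA, the sequence that Fos and Jun dimers bind. For the GC box, bound by Sp1 and related factors, the letters were GGGCGG. The CCAAT box, bound by the trimeric factor NF-Y, was searched by the letters of its name. For the TATA box of core promoters the letters were TATAAA. Sites for CREB (CRE, TGACGTCA) and for NF-κB (κB, GGGACTTTC) were searched as well. The Capn11 window held 1 GC box, starting 71 bases before the transcript start, and 1 CCAAT box on the opposite strand, 84 bases before it. Capn2 held the AP-1 letters 183 bases before the start, and Capn6 held them 58 bases before it. The table had 14 windows for 9 members and none for Capn5. The AP-1 letters were in 2 of these 14 windows, against 5.20% of all 32851 promoter windows. The GC box was in 7 of the 14, against 35.7% of all windows, and the CCAAT box was in 9, against 37.4%. None of the 14 held the TATA, CRE or κB letters, which were in 13.6%, 1.79% and 0.353% of all windows. These matches describe letters in a window and are no evidence of binding.

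Values are the processed intensity of each spot, in arbitrary units after background subtraction. For the log2 ratio, the 75th percentile of each array was subtracted, which was 466.4 on the earlier and 466.2 on the later array, and the earlier value was then subtracted from the later one. The error given is that of the scanner software for both spots combined and covers within-array error only. A gene is called detected when both arrays had its brightest probe well above background, and abundant when the mean of that probe also lay above the 75th percentile. All 10 members were detected, and 7 of them were abundant. Capn1, Capn3 and Capn5 lay below the 75th percentile. Of the 13 probes, 11 were well above background on both arrays. Probes differ in how well they bind, so levels were compared between time points for each probe and not between genes.

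**Figure D1:**
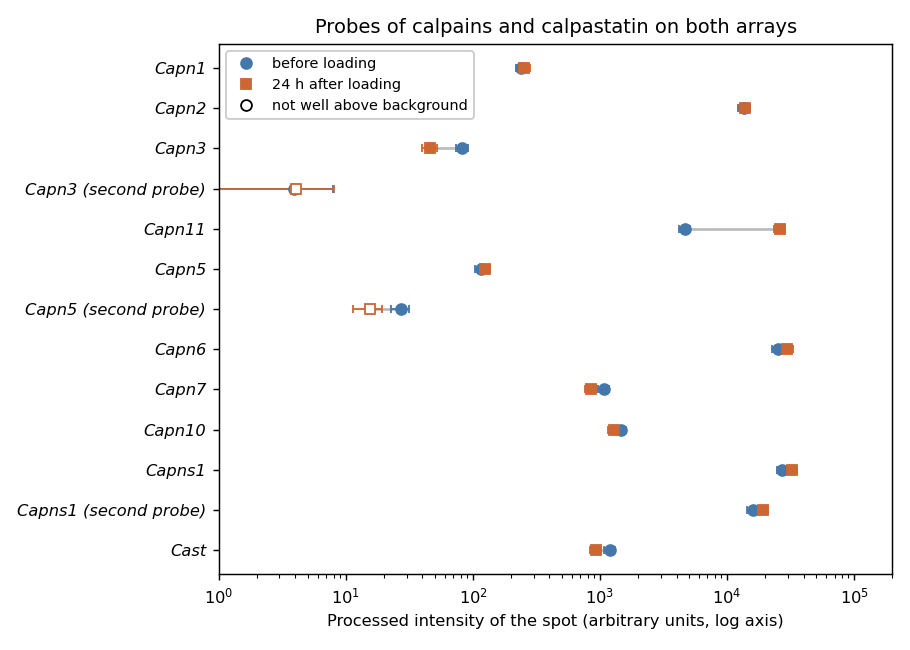
Processed intensity (arbitrary units, log axis) of the 13 probes of the 10 members before loading (circles) and 24 h after loading (squares), with the error of the scanner software and open symbols for spots not well above background. Capn11 moved from 4651 to 25870, while the symbols of most other probes overlap or nearly touch; an error as large as its value runs to the left edge.

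Among the classical calpains, Capn11 rose while the ubiquitous Capn1 and Capn2 stayed close to their starting level. Capn11, a calpain best known from the testis, gave an intensity of 4651 before loading and of 25870 a day later. Its log2 ratio was 2.48 (within-array error 0.20), or 5.57-fold higher. It ranked 1 of 8564 abundant genes and 2 of 14222 detected genes by log2 ratio, which is how it was chosen. The median pixel intensity of the same spot, before background subtraction, went from 4334 to 23866, with a local background of 37.0 and 43.0. The change was therefore already present in the unsubtracted signal of this spot.

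Capn2, the catalytic subunit of m-calpain, gave intensities of 13470 and 13734 on the earlier and later array. Its log2 ratio of 0.03 was smaller than its within-array error of 0.20. Capn1, the catalytic subunit of μ-calpain, read 241 before loading and 254 at 24 h, with a log2 ratio of 0.07 and an error of 0.21. Both genes thus changed by less than the error of their own spots. The log2 ratio of Capn11 exceeded that of Capn2 by 2.45 (combined within-array error 0.29) and that of Capn1 by 2.40 (combined error 0.29). Nothing is read from these gaps, because the same contrast chose Capn11.

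Capn3, the calpain of skeletal muscle that is mutated in a limb-girdle muscular dystrophy, was the member with the lowest ratio. Its brighter probe went in intensity from 82.7 to 45.7, a log2 ratio of -0.86 with an error of 0.25, which is 1.81-fold lower and within 2-fold. Neither array had the second probe of Capn3 well above background, so no fold is given for it. The size of this difference depended on the background correction. With normexp correction the log2 ratio of Capn3 was -0.49, and on the median spot intensity without background subtraction it was -0.60.

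The atypical calpains moved little and in both directions. Capn6, which lacks the catalytic cysteine and is known for binding microtubules, gave intensities of 25233 and 29794. Its log2 ratio was 0.24, with an error of 0.20. Capn7, which carries domains that bind the ESCRT machinery, went from 1069 to 849.6, a log2 ratio of -0.33 with an error of 0.20. Capn10, a gene long studied for an association with type 2 diabetes, went from 1461 to 1277, and its log2 ratio of -0.19 lay within its error of 0.20. The brighter probe of Capn5 read 116 and 124, a log2 ratio of 0.10 with an error of 0.21. Its second probe was well above background before loading, at 27.2, and was not at 24 h, where it read 15.3. Set against the lowest signal well above background on the later array (17.8), that probe was 1.53-fold lower. Its readings had errors of 4.4 and 3.9, so this fold is no firm bound. The 2 probes of Capn5 therefore differed in direction, and the dimmer one read close to background on both arrays. The 4 atypical members had log2 ratios from -0.33 to 0.24, with a median of -0.05, and 2 of them lay above 0.

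The small subunit and the inhibitor moved in opposite directions, each by less than 1.5-fold. Capns1 was the only member with 2 probes well above background on both arrays. Its brighter probe read 27186 before loading and 32455 at 24 h, and the other read 16050 and 19135. Their log2 ratios were 0.26 and 0.25, each 1.19-fold higher. They differed by 0.002, while the range between the probes of a gene had a median of 0.19 over the 3635 genes with more than 1 detected probe. Cast went from 1197 to 932.4, a log2 ratio of -0.36 with an error of 0.20, or 1.28-fold lower. The log2 ratio of Capns1 exceeded that of Cast by 0.62, with a combined within-array error of 0.29. For Capn2 and Cast the same difference was 0.39, with a combined error of 0.29, and for Capn1 and Cast it was 0.43, also with 0.29.

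**Figure D2:**
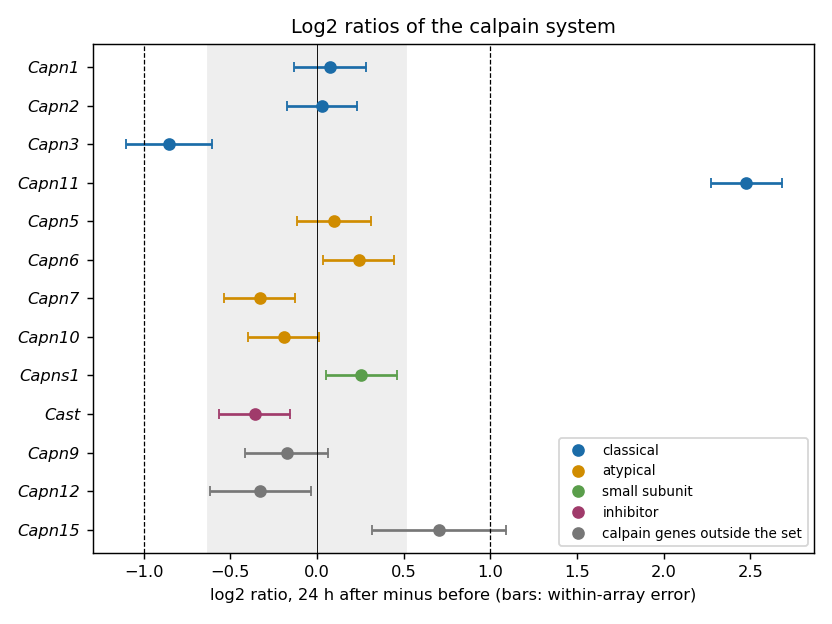
Log2 ratio (24 h after minus before loading) of the 10 members and of the 3 other calpain genes that were detected, coloured by role, with bars for the within-array error. The shaded band holds the middle 90% of all detected genes and dashed lines mark 2-fold. Capn11 at 2.48 stands outside both, Capn3 at -0.86 and Capn15 at 0.70 lie outside the band only, and the other genes lie inside it.

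The other members did not share the rise of Capn11. One member of 10 was more than 2-fold higher, and this one was chosen for its rise, while 0.668% of all detected genes and 0.315% of abundant genes were more than 2-fold higher. No member was more than 2-fold lower, against 1.83% of detected and 0.899% of abundant genes. Nothing is read from the first count, because the same contrast chose Capn11. The other 9 members had log2 ratios from -0.86 to 0.26. Of these 9, 5 lay above 0 and their median was 0.03, against -0.01 over all detected genes. The median of all 10 members was 0.05. For 5 of the 9 the ratio exceeded its own within-array error (Capn3, Capn6, Capn7, Capns1 and Cast), and for Capn3 alone it exceeded 2 such errors. Of all detected genes, 43.4% exceeded their own error and 17.0% exceeded 2 errors. The middle 90% of detected genes ran from -0.63 to 0.51 on the log2 scale, and 8 of the 9 lay inside it, all but Capn3. Of all detected genes, 2.54% had a lower log2 ratio than Capn3, 12.7% a lower one than Cast, 14.2% a lower one than Capn7 and 83.4% a lower one than Capns1.

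**Figure D3:**
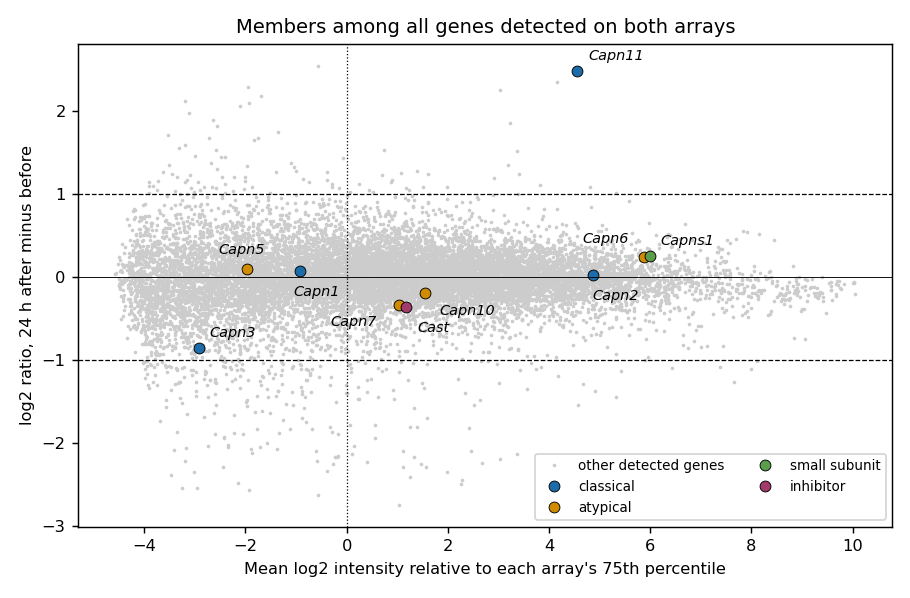
Log2 ratio (24 h after minus before loading) against mean log2 intensity over both arrays after subtraction of the 75th percentile, for all 14222 detected genes (grey) and the 10 members (coloured by role). Dashed lines mark 2-fold and the dotted line the 75th percentile. Capn11 lies far above most genes of its intensity, as does Msmp (2.35), and the other members lie within the cloud.

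Calpain genes outside the set were dim. Of 6 such genes, 3 were detected, namely Capn9, Capn12 and Capn15, while Capn8 and Capn13 read near background throughout. Capn9, a calpain of the stomach, read 77.6 and 68.7 on its brighter probe, a log2 ratio of -0.18. Capn12, a calpain of the hair follicle, read 52.1 and 41.5, a log2 ratio of -0.33. Capn15 read 18.0 and 29.3, a log2 ratio of 0.70 with an error of 0.39. With normexp correction Capn15 came to 0.21. Capns2, a second small subunit, read 21.1 (error 4.4) before loading and 12.8 (error 4.2) at 24 h. It was not well above background at 24 h, so no fold is given for it. None of the 3 detected genes passed 2-fold.

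The single probe of Capn11 left its ratio without a second measurement. The probe's sequence was not used here, so whether another transcript could also bind it was not checked. Among all 27 abundant genes more than 2-fold higher, 19 had only 1 detected probe and 8 had more than 1. Of all detected genes, 74.4% had only 1 detected probe. In 2 of these 8, Isg15 (1.08) and Tubb2b (1.07), the other probes, taken as their median, were also more than 2-fold higher. In 6 of the 8 the other probes pointed in the same direction. Over all 8 genes the median log2 ratio of the other probes was 0.49. Among the 77 abundant genes more than 2-fold lower, 16 had more than 1 detected probe. The other probes were also past 2-fold in 14 of these 16, and their median over all 16 was -1.58. Of the 8 genes that rose, all but Krtap19-5 (2.25) had a log2 ratio of 1.19 or less on the brightest probe. This is close to the 2-fold limit, so that Lgals3bp, with 1.00 and 0.98, counts as not passing. The other probes of Mfap2 (0.63), Scube2 (0.34), Wdr62 (0.18), Xntrpc (-0.05) and Krtap19-5 (-0.32) lay further below it. Of fallen genes near the limit, Knstrn, Megf6 and Zwilch passed on their other probes, and Incenp (-0.99) and Mad2l1 (-0.998) did not. The ratios of the 16 that fell reached -2.40. The counts for genes that rose and fell were not tested against each other, and whether a second probe of Capn11 would pass could not be measured.

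The spot of Capn11 had 28 other spots within 100 μm, of which 16 were well above background on both arrays. None of the 16 was more than 2-fold higher or lower, and their median log2 ratio was -0.12. Around the 13 member probes, at most 1 neighbouring spot in each case had changed more than 2-fold. The 3 abundant genes whose log2 ratios came closest to that of Capn11 were Msmp (2.35), Krtap19-5 (2.25) and Marchf9 (1.86). Their intensities went from 3705 to 18828, from 1735 to 8268 and from 2287 to 8287. Msmp and Marchf9 also had a single probe, and the log2 ratio of the other Krtap19-5 probe was -0.32. The spots of these 3 genes lay 3905, 2606 and 4205 μm from that of Capn11. With 1 array per time point, this likeness rests on 1 ratio per gene.

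Genes next to Capn11 on chromosome 17 did not follow it. The RefSeq table of GRCm38.p6 was used for gene order. On one side lay Mymx (-0.06), Slc29a1 (-0.02) and Hsp90ab1 (-0.04), and on the other Tmem63b (0.10), Mrpl14 (-0.02) and 1600014C23Rik (-0.72), given with their log2 ratios. All 6 were detected and none passed 2-fold. Mymx, with readings of 22.5 and 21.6, and 1600014C23Rik, with readings of 64.2 and 39.1, were dim. Tmem63b, the nearest gene on its side, read 5828 before loading and 6257 at 24 h.

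Genes of the testis, where Capn11 is best known, stayed dim. Of 18 testis and germ cell genes on the arrays, 7 were detected and 0 were abundant, and their summed intensity was 556 before loading and 537 at 24 h. The protamine gene Prm1 and the germ cell genes Ddx4, Dazl and Sycp3 were among the 11 that were not well above background on both arrays. The detected ones had a median log2 ratio of -0.09, from -0.54 for Prm2 and -0.43 for Tssk1 to 0.30 for Tnp1 and 0.56 for Ldhc. No detected member of this list passed 2-fold.

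Skeletal muscle genes, listed because Capn3 is a muscle calpain, were mostly dim. Of 10 genes 5 were detected, all with a log2 ratio below 0 and a median of -0.14, and none passed 2-fold. Tnnt3 had -0.78, Acta1 -0.31, Myog -0.13 and Ttn -0.02. The summed intensity of the 10 genes went from 1762 to 1335, while Ckm, Myh1, Myh4, Mylpf and Myod1 were not well above background on both arrays. The part of muscle cells in the value of Capn3 was not tested, and in RNA of a whole culture fewer cells of a type and less RNA per cell cannot be told apart.

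Genes of calpain substrates and of calcium supply had medians near 0, with single genes such as Fos and Piezo2 further away. Of 23 genes for adhesion and cytoskeleton substrates, 22 were detected, 10 above and 12 below 0, and the median log2 ratio was -0.005. The talins Tln1 (0.29) and Tln2 (0.27), which link integrins to actin, were highest, and the intermediate filament gene Vim (-0.48) and the actin crosslinker Actn4 (-0.29) lowest. Of 20 genes for substrates in signalling and apoptosis, all were detected and their median was 0.05. The caspases Casp12 (0.46) and Casp8 (0.39) were highest, and the AP-1 subunit Fos (-0.98) lowest. Of 20 genes that supply or sense calcium, 19 were detected, with a median of -0.01. The stretch-gated channel Piezo2 (0.74) and the calcium release channel Itpr1 (0.37) had the highest values, and the mitochondrial uniporter Mcu (-0.47) and the calmodulin gene Calm3 (-0.37) the lowest. None of these 3 lists had a detected member past 2-fold.

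Lysosomal cysteine proteases were compared as another protease family with its own inhibitors. Of 15 cathepsin, legumain and cystatin genes, 14 were detected and 13 of these lay above 0, with a median log2 ratio of 0.24 against -0.01 over all detected genes. Ctsf (0.80) and Ctss (0.63) were highest. Ctsw (-0.62) was the only one below 0, and Cstb, a cytosolic cystatin, had 0.01. None passed 2-fold. The 9 calpain genes other than Capn11, by comparison, were split between 5 above and 4 below 0.

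**Figure D4:**
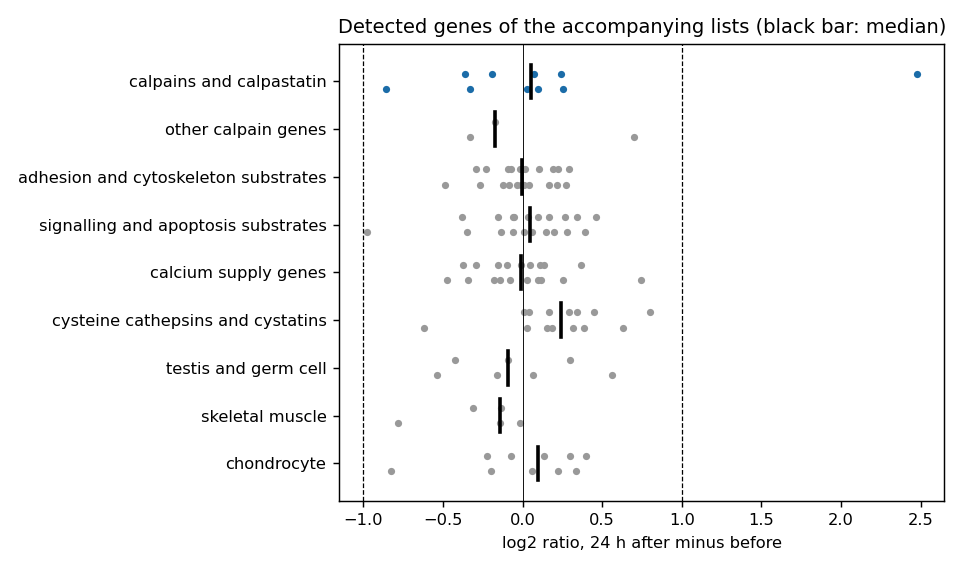
Log2 ratio (24 h after minus before loading) of each detected gene of the set and of 8 accompanying lists, with a black bar for the median and dashed lines at 2-fold. Capn11 at 2.48 is the only point drawn beyond 2-fold, and the medians of the lists drawn lie between -0.18 and 0.24. The macrophage, osteoblast and adipocyte lists, which had detected genes past 2-fold, are not drawn. Nor are the endothelial, tenocyte and erythroid lists.

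All 10 chondrocyte markers listed were abundant on both arrays, among them Sox9, Col2a1 and Acan, with a median log2 ratio of 0.10 and none past 2-fold; Hapln1 (0.40) was highest and Col11a1 (-0.82) lowest. The 7 detected macrophage genes had a median of 0.21. Ptprc (1.14) passed 2-fold among them but was dim, with readings of 20.9 and 46.1, while Csf1r, the only abundant one, had -0.15 and C1qa -0.42. Of the other marker lists, Ibsp (-2.06) of 4 detected osteoblast genes passed 2-fold. All 4 lay below 0, with a median of -0.77, and Alpl, the only abundant one, had -0.89. Adipoq (2.29), Cfd (1.98) and Plin1 (1.01) of 4 detected adipocyte genes also passed 2-fold. Ibsp and these adipocyte genes were dim, and the adipocyte ones read 54.2 and 265, 26.9 and 106, and 61.7 and 124. The other detected adipocyte gene, Fabp4, was abundant and went from 746 to 1440, a log2 ratio of 0.95 with an error of 0.20. Cidec and Lep of the adipocyte list were not well above background on both arrays. The adipocyte median of 1.49 came to 0.94 with normexp correction and to 0.98 with no filter on dim probes. In the endothelial, tenocyte and erythroid lists 3, 3 and 2 genes were detected, with medians of -0.05, -0.35 and -0.11. With no filter on dim probes these 3 medians came to 0.02, 0.21 and 0.04, so they have no settled direction. Of the 59305 spots other than controls, 59.1% before loading and 57.7% at 24 h were well above background. The part of these cells in the values of the members was not tested.

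**Figure D5:**
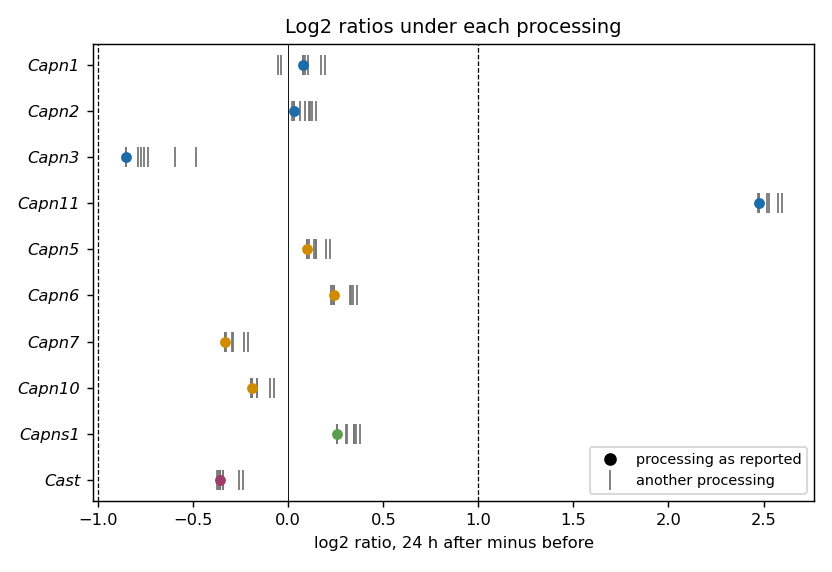
Log2 ratio (24 h after minus before loading) of each member with the processing as reported (circle) and under 11 other settings (ticks), with dashed lines at 2-fold. Capn11 stayed between 2.47 and 2.60 and Capn3 moved most, between -0.86 and -0.49. Settings on detection, probe choice and flagged spots could hardly move Capn11, which had 1 unflagged spot.

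The order of the members by log2 ratio had Capn11 far above the rest, which is how it was chosen. Among the other 9, neighbours in that order differed by less than their combined within-array errors, except for the step between Cast and Capn3 (0.50, combined error 0.32). Capn1 changed sign under 2 of 11 other settings, and the other 9 members kept their sign under all 11. Settings on detection, probe choice and flagged spots could hardly move most of these values, since most members had 1 detected probe.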

How the data were processed

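RNA of primary mouse chondrocytes, unloaded or 24 h past loading, was hybridised to Agilent SurePrint G3 mouse arrays, 1 per time point, both on 1 slide. The authors deposited the processed intensity of each spot from Feature Extraction 10.10.1.1, background-subtracted and not normalized between arrays. The deposited table of the authors holds the same intensities, with a largest difference of 0.497%.

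Spots with an outlier flag on 1 or both arrays were dropped (255 spots), and spots of a probe were averaged on the log2 scale, which gave 55678 probes, 27235 of them named. The 75th percentile of each array was subtracted. Accessions were named without versions through the RefSeq table. The brightest probe stood for each gene, and a probe counts as detected when all its spots were well above background. No test was run. The members and the other 14 gene lists, among them the other calpains and the markers, were chosen with earlier results of these data known.

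The genes named are all calpain genes, the genes nearest to Capn11 in ratio or position, and from each list those past 2-fold or else the highest and lowest 2 (for chondrocyte markers 1 each is given and, for the endothelial, tenocyte and erythroid lists, the median), with some undetected markers and genes that were chosen after their values were seen. One item that the rule names is not reported here. A total of 13 alternatives were run, of which spike-in scaling and the unsubtracted spot intensity were chosen after the data were seen. Python 3.11.15, numpy 2.4.6, pandas 2.3.3 and, for normexp (offset 50), quantile and loess, limma 3.58.1 in R 4.3.3 were used. The code for the calls was run on simulated data with large changes in abundant genes and noise of the within-array error only. It does not cover variation between arrays, dim genes or changes near the 2-fold limit.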

Additional observations from a re-analysis of the deposited data

How the results depend on the processing

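The log2 ratio of Capn11 lay between 2.47 and 2.60 under the 11 other settings run for single ratios. Settings on detection, probe choice and flagged spots could hardly move it, because Capn11 had 1 unflagged spot well above background on both arrays. The deposited table holds nearly the same intensities and could hardly move it either. These settings therefore say nothing on how firm its ratio is. Under all 13 alternatives, 1 member was more than 2-fold higher. No member was more than 2-fold lower, except that with a limit of 1.5-fold 1 member, Capn3, was lower. No member moved by more than its within-array error except Capn3, with normexp correction (-0.49) and with the unsubtracted median intensity (-0.60). Capn1 was below 0 under these same 2 settings (-0.05 and -0.04), and the median of the members without Capn11 then came to -0.05 and -0.04. The median of all detected genes rose by 0.12 with spike-in scaling and by 0.10 with median scaling, which raised the median of the members to 0.17 and 0.15. Of the 14 accompanying lists, 6 had a median that changed sign under at least 1 of the 9 settings run for lists, among them the adhesion and cytoskeleton substrates (up to 0.09), calcium supply (up to 0.09) and testis genes (up to 0.02), and the tenocyte median was -0.07 when detection was required on only 1 array.

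The counts over all detected genes, 95 higher and 260 lower, depended more on the settings. They came to 38 and 117 with normexp correction, 50 and 138 with the unsubtracted intensity, 492 and 983 with no filter on dim probes, 192 and 507 when detection was required on only 1 array, 25 and 99 when 2-fold had to be passed by 2 within-array errors, and 520 and 830 with a limit of 1.5-fold. The filters and limits act by construction. The normexp offset of 50 and the background kept in the unsubtracted intensity also make the ratios of dim probes smaller by construction. How much of the change in the counts this makes up was not tested. Signal over background limits Capn3, Capn5 and the calpain genes outside the set, since intensities counted as well above background started at 17.3 on the earlier and 17.8 on the later array. No paired analysis was possible because neither time point had replicates.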
